A study of Mus musculus with 16 samples.

Results

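The genes described here are 42 mouse genes of the cell cycle, which encode the machinery of DNA replication, the cyclins with the kinase CDK1, and the proteins of mitosis. They were picked by gene symbol from the 55421 genes of the count table, and all 42 were detected and tested among 21085 genes that passed a filter on low counts. They fall into 8 roles, from 10 genes of origin licensing and the replication fork to 2 genes of chromosome structure. RNA was sequenced from cells sorted as macrophages of the lymph node sinuses. They came from C57B/6 male mice with a MOC2 squamous cell carcinoma in the flank. The tumor had grown for 2 weeks after an intradermal injection of 500000 cells. Subcapsular sinus macrophages (SSMs) were gated as CD11c- cells of low side scatter and medullary sinus macrophages (MSMs) as CD11c+ cells of high side scatter. Both gates lay within live CD45+ CD3- B220- Ly6G- CD11b+ CD169+ cells. Each subset was sorted from tumor-draining lymph nodes (tdLNs) and from non-draining nodes of the other side (ndLNs). Every mouse carried a tumor, so the ndLN samples are not samples of tumor-free animals. Each group held 2 libraries, each from a pool of 2 mice that gave 2 tdLNs or 6 ndLNs, and each library was read on lanes 3 and 4 of the sequencer. Lanes of 1 library differed by no more than sampling noise and were summed, which left 8 libraries of 42972328 to 48130352 counts. All levels below are in CPM, counts scaled to a common library size, after TMM scaling, a correction for the makeup of each library. A count of 3 corresponds to 0.0623 to 0.0698 CPM, and no member was at 0 in any library.

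A cell that commits to division first assembles the MCM helicase on replication origins and raises the enzymes that make deoxynucleotides. Cyclins E and A then drive S phase, and cyclin B with CDK1 drives entry into mitosis. Kinases of the Aurora and Polo families, the chromosomal passenger complex, motor proteins of the kinesin family and the anaphase-promoting complex carry out chromosome segregation. Most of these transcripts are made only in cycling cells, so their level in a sorted population follows both how many cells cycle and how much RNA each of them holds, which bulk libraries cannot tell apart. Mature tissue macrophages are largely outside the cycle, although some resident macrophages renew themselves by division.

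In ndLNs, 21 of the 42 cell cycle genes were lower in SSMs than in MSMs and 0 were higher (edgeR's quasi-likelihood test, adjusted p under 0.01, genes averaging over 100 normalized counts in a lane). Among all genes tested, 6.06% were lower in SSMs and 6.01% were higher under the same rule. The median log2 fold change of the 42 genes was -1.46, a ratio of 0.364, against 0.09 for all genes tested, and 40 of the 42 values lay below 0. In 38 of the 42 genes both SSM libraries lay under both MSM libraries, a pattern seen in 26.5% of all genes. The reverse pattern was seen in 1 of the 42, the centromere gene Cenpa, and in 30.7% of all genes.

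In tdLNs, which share no library with the ndLN comparison, 24 of the 42 genes were lower in SSMs and 0 were higher. The shares among all genes were 3.53% lower and 5.16% higher. The median log2 fold change was -1.76, a ratio of 0.294, against 0.02 for all genes, and 41 of 42 values lay below 0. Both SSM libraries lay under both MSM libraries for 40 of the 42 genes and in 27.1% of all genes, and above them for 1 member, again Cenpa, and in 29.5% of all genes. The 17 genes called in both nodes made up 81.0% of the ndLN list and 70.8% of the tdLN list, against 46.8% and 80.4% for the genes called lower in both nodes among all genes tested. They were Rrm2, Tyms, Tk1, Ccne1, Ccnb1, Ccnb2, Cdk1, Aurkb, Birc5, Cdca8, Tpx2, Ube2c, Cdca3, Kif23, Stmn1, Mki67 and Top2a. Aurka, Bub1b, Kif11 and Cenpf were called in ndLNs and missed the threshold in tdLNs, whereas Mcm3, Mcm5, Mcm7, Cdc45, Uhrf1, Ccna2 and Kif20a were called in tdLNs and missed it in ndLNs. The other 14 members were called in neither.

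**Figure D1:**
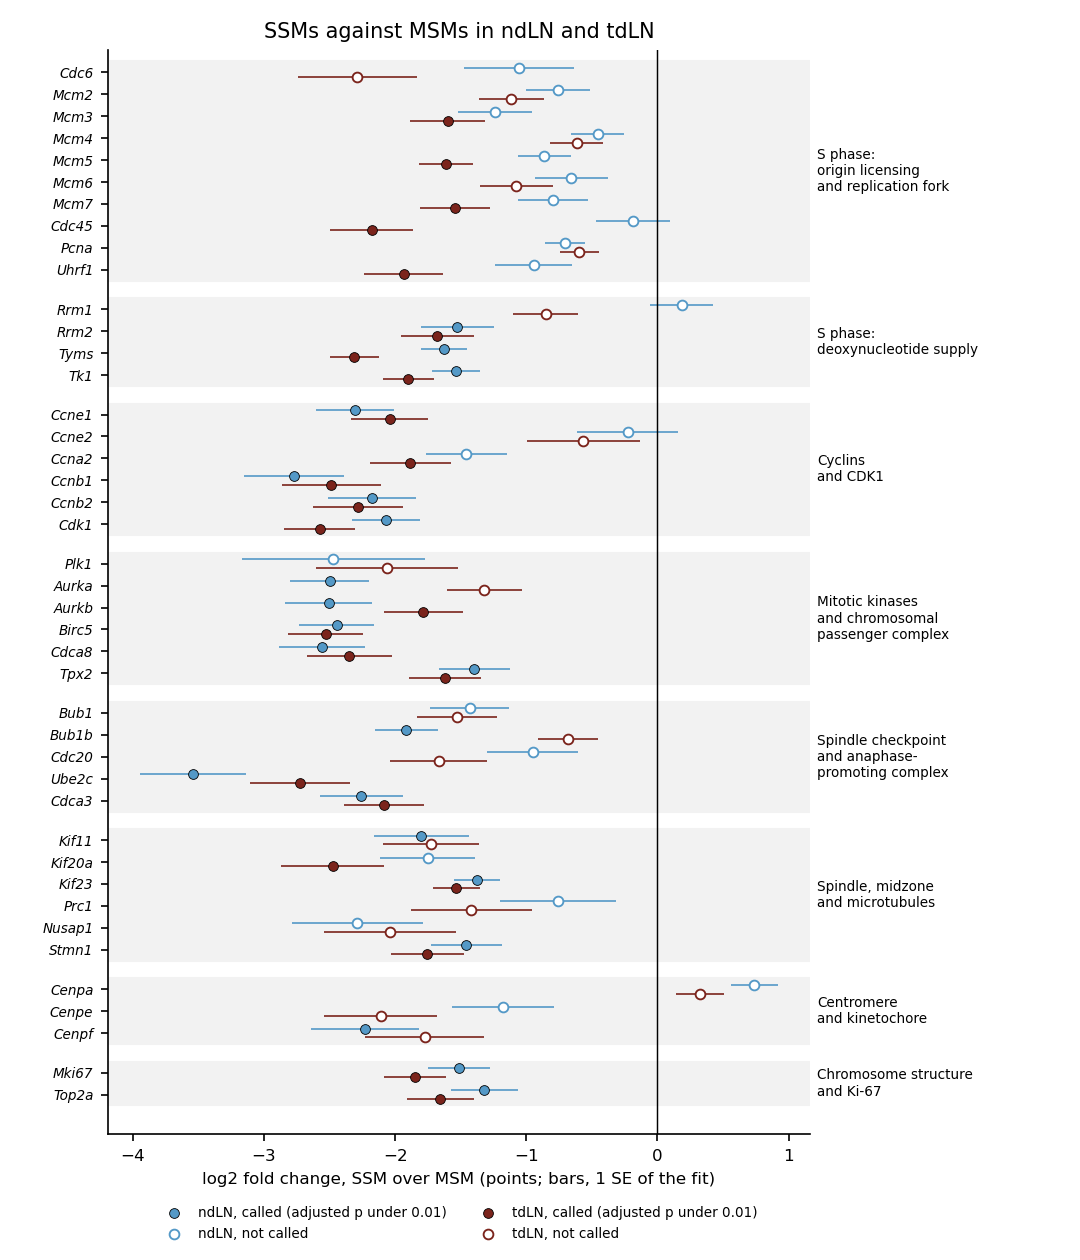
Log2 fold change of SSMs over MSMs for each of the 42 cell cycle genes, in ndLNs (blue) and tdLNs (red), with bars of 1 SE from the fit and filled points for called genes. Points lie left of 0 for 40 genes in ndLNs and 41 in tdLNs, and Cenpa lies right of 0 in both.

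The number of calls rested on having both libraries of a group, because each group held 2. With a library of the compared groups left out, fewer genes were called over all genes tested, and fewer members in most of these fits. Calls in tdLNs also fell, among members and over all genes, without either MSM ndLN library. The members' median in ndLNs was -1.39 without MSM ndLN library 1 and -1.63 without library 2. It was -1.15 without SSM ndLN library 1 and -1.84 without library 2. The tdLN median was -1.84 and -1.70 without SSM tdLN libraries 1 and 2. It was -1.51 and -2.08 without MSM tdLN libraries 1 and 2. The lone library of a group was then assumed to vary like the other groups. The direction moved less: 38 to 41 of the 42 values lay below 0 in ndLNs and 41 in tdLNs in each of these fits. Tyms alone was called in both nodes in every fit that left out a library.

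Scaling by library totals instead of TMM moved the median of all genes in ndLNs from 0.09 to 0.36 on the log2 scale. The split over all genes went from 1267 higher and 1278 lower to 1745 higher and 822 lower. The median of the 42 genes under that scaling was -1.17, so it stayed below the median of all genes, and 16 members were called, among them 15 of the 21 and also Cenpa as higher. Cdc45 and Ccne2, which were not called, changed from -0.19 and -0.23 to 0.10 and 0.07 under it.

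The libraries were checked against their sort labels. Siglec1, which encodes the CD169 of the gate, reached 15.1 and 8.47 CPM in SSMs from ndLNs and 70.0 and 59.2 CPM in SSMs from tdLNs, but 0.795 to 5.96 CPM in the 4 MSM libraries. Genes of conventional dendritic cells were high in the MSM libraries, where 6 of 10 listed genes were lower in SSMs in ndLNs and 7 in tdLNs. The summed level of the 10 was 4210 to 5371 CPM in MSMs and 1542 to 2364 CPM in SSMs. Xcr1 of this list was 25.1-fold lower in SSMs in ndLNs and 44.5-fold lower in tdLNs, and Clec9a 128-fold and 142-fold lower. Genes of other lymphoid cells were high in the SSM libraries, where 8 of 8 NK and cytotoxic genes were higher in both nodes, as were 10 of 10 innate-like and innate lymphoid genes in ndLNs and 9 in tdLNs, and 11 and 10 of 12 T cell genes. The T cell list also held Cd8a, which was 20.3-fold lower in SSMs in ndLNs and 34.6-fold lower in tdLNs, and the dendritic cell list held Sirpa, which was 2.90-fold higher in SSMs in tdLNs. The summed NK and cytotoxic level was 1919 to 3207 CPM in SSMs and 23.0 to 114 CPM in MSMs. Germinal centre B cells divide rapidly. Their 6 listed genes summed to 286 to 412 CPM in MSMs and 61.5 to 108 CPM in SSMs, but Gcsam alone gave 192 to 296 CPM of this in MSMs, while Mef2b stayed at or below 0.359 CPM there. Gcsam was lower in SSMs in both nodes and Bcl6 in ndLNs. S1pr2 of the same list was higher in SSMs, by 3.49-fold in ndLNs and 2.64-fold in tdLNs, and Rgs13 was at 3.44 and 3.90 CPM in SSMs from ndLNs and at or below 0.0256 CPM in MSMs. Macrophage genes summed to 724 to 1209 CPM in MSMs, 988 to 1369 CPM in SSMs from ndLNs and 3424 to 4300 CPM in SSMs from tdLNs. Of these 10 genes, 4 were higher and 2 lower in SSMs in ndLNs, and 4 were higher and 0 lower in tdLNs. The 2 lower genes were Mertk, by 11.2-fold, and Cd68, by 2.09-fold. The part of these other cell types in the cell cycle differences was not tested.

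Promoters of cell cycle genes are known for a few short words, the E2F site of genes expressed at the entry to S phase and the CHR and CCAAT boxes of genes expressed in G2 and mitosis. RefSeq promoter windows of build GRCm38.p6, from 250 bases before to 50 bases after the annotated start, were found for 35 of the 42 genes, in 38 windows. The 4 windows below show an S phase gene, the kinase gene that joins both phases, the mitotic gene that differed most between SSMs and MSMs, and Cenpa, which went the other way. Each is read on the strand of its gene, and capitals mark the words TTTCCCGC, TTTGGCGC, TTTCGCGC and TTTGCCGC (E2F), TTTGAA and TTTAAA (CHR) and CCAAT on either strand.
Mcm5 (chr8:75109259-75109558, plus strand): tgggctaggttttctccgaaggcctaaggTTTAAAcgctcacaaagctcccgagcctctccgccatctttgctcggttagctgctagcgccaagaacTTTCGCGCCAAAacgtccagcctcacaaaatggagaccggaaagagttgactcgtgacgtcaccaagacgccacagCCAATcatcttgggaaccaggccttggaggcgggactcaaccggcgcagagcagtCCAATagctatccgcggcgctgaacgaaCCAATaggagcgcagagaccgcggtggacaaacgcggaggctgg
Cdk1 (chr10:69352863-69353162, minus strand): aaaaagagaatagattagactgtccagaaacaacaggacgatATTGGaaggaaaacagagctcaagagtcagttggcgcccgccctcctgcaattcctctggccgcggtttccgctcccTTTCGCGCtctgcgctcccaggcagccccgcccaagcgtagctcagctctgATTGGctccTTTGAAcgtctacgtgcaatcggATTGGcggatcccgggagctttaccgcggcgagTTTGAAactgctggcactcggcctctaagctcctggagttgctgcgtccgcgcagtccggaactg
Ube2c (chr2:164769679-164769978, plus strand): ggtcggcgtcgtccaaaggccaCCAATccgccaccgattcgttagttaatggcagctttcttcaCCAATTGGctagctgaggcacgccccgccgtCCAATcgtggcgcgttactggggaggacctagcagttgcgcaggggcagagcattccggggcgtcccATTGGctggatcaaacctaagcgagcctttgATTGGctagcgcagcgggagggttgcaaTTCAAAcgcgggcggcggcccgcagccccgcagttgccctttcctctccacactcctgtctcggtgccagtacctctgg
Cenpa (chr5:30666636-30666935, plus strand): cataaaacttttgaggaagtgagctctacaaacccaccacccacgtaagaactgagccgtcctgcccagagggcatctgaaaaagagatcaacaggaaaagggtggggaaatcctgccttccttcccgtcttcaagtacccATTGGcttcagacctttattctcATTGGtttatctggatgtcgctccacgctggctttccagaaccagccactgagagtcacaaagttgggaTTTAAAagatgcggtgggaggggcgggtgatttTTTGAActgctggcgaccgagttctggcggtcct

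The Mcm5 window held 2 E2F words that overlap each other, 1 CHR word and 3 CCAAT words. The Cdk1 window held 1 E2F word, 2 CHR words and 3 CCAAT words. The Ube2c window held 6 CCAAT words, of which 2 overlap on opposite strands, and 1 CHR word. The Cenpa window held 2 CHR words and 2 CCAAT words, as did windows of genes that were lower in SSMs. Over the members, an E2F word was found in 6 of 15 S phase windows (40%) and in 1 of the other 23 (4.35%), against 2.26% of all 32851 windows. A CHR word was found in 40% of S phase windows and in 91.3% of the others, against 27.6% of all windows. A CCAAT word was found in 84.2% of the members' windows and in 37.4% of all windows. Its share was similar in the S phase windows (80%) and the others (87%). These are matches of letters, and no binding was measured.

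Among the genes of origin licensing and the replication fork, the difference between SSMs and MSMs was smaller in ndLNs than the median of the 42 genes. The median log2 fold change of these 10 genes was -0.78 in ndLNs, where 0 of 10 were called, and -1.57 in tdLNs, where Mcm3, Mcm5, Mcm7, Cdc45 and Uhrf1 were lower. Pcna, the sliding clamp of the replication fork, had the highest level per kilobase of transcript of all 42 genes, with a mean of 49.4 CPM per kb. It was at 92.5 and 95.7 CPM in SSMs and 166 and 141 CPM in MSMs from ndLNs, and at 85.9 and 94.9 CPM in SSMs and 129 and 144 CPM in MSMs from tdLNs. The groups did not overlap in either node. Its level was 1.63-fold lower in SSMs in ndLNs (adjusted p = 0.0128) and 1.51-fold lower in tdLNs (adjusted p = 0.0345), both short of the threshold, and 19.1% of its 50-base windows also occur in other genes, mostly the pseudogene Pcna-ps2.

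The MCM genes encode the helicase that unwinds DNA at the fork. Their log2 fold changes lay between -0.46 for Mcm4 and -1.24 for Mcm3 in ndLNs, and between -0.62 for Mcm4 and -1.61 for Mcm5 in tdLNs. Mcm5, whose promoter is printed above, was at 60.6 and 75.6 CPM in SSMs against 143 and 106 CPM in MSMs from ndLNs. In tdLNs it was at 43.8 and 46.3 CPM against 152 and 124 CPM. The groups did not overlap, and the gene was 3.06-fold lower in SSMs from tdLNs (log2 -1.61 ± 0.21 SE, adjusted p = 0.00168).

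Enzymes of deoxynucleotide supply gave some of the best supported differences. Tyms encodes thymidylate synthase, which makes the thymidine nucleotide of DNA, and lies at chr5:30058202-30073617 on the minus strand (GRCm38). It was at 13.6 and 11.8 CPM in SSMs and 43.5 and 35.0 CPM in MSMs from ndLNs. In tdLNs it was at 9.08 and 8.60 CPM in SSMs and 45.9 and 41.7 CPM in MSMs. No SSM library came near an MSM library, and Tyms had the smallest p of the 42 genes in both nodes: 3.08-fold lower in ndLNs (adjusted p = 0.000562) and 4.96-fold lower in tdLNs (adjusted p = 0.000225). Tk1, the thymidine kinase of the salvage route, was at 14.3 and 15.1 CPM in SSMs against 46.2 and 39.1 CPM in MSMs from ndLNs, and at 11.2 and 10.1 CPM against 38.2 and 41.1 CPM in tdLNs. It was likewise separated in both nodes, by 2.90-fold (adjusted p = 0.000908) and 3.73-fold (adjusted p = 0.000613).

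Ribonucleotide reductase has a large subunit, Rrm1, and a small subunit, Rrm2, and the 2 transcripts differed in ndLNs. Rrm2 was at 25.4 and 41.6 CPM in SSMs and 110 and 84.0 CPM in MSMs from ndLNs, and at 31.5 and 30.1 CPM against 114 and 84.2 CPM in tdLNs. It was lower in SSMs by 2.88-fold in ndLNs (adjusted p = 0.00621) and by 3.20-fold in tdLNs (adjusted p = 0.00552). Rrm1 was at 103 and 148 CPM in SSMs and 118 and 105 CPM in MSMs from ndLNs, so the groups overlapped (log2 0.19 ± 0.24 SE). That value changed sign, to -0.27, without SSM ndLN library 2. In tdLNs Rrm1 was at 69.1 and 59.7 CPM in SSMs against 140 and 94.0 CPM in MSMs, 1.80-fold lower with an adjusted p of 0.0543. The difference between the subunits was not tested.

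Of the cyclins and CDK1, 4 of 6 were lower in SSMs from ndLNs and 5 of 6 in tdLNs, with medians of -2.12 and -2.16 on the log2 scale. Cdk1, the kinase of mitotic entry, was at 7.63 and 10.2 CPM in SSMs and 37.2 and 37.8 CPM in MSMs from ndLNs. In tdLNs it was at 9.01 and 5.36 CPM against 43.7 and 41.9 CPM. The groups were far apart in both nodes, with 4.20-fold (adjusted p = 0.00111) and 5.96-fold (adjusted p = 0.000703) lower levels in SSMs. Ccnb2, a cyclin B partner of CDK1, was at 6.60 and 12.4 CPM in SSMs against 46.8 and 38.8 CPM in MSMs from ndLNs, and at 7.47 and 8.94 CPM against 47.2 and 32.7 CPM in tdLNs. It was 4.52-fold lower in ndLNs (adjusted p = 0.00277) and 4.86-fold lower in tdLNs (adjusted p = 0.00344). Ccne1 and Ccne2 both encode E cyclins, which act at the entry to S phase. Ccne1 had log2 fold changes of -2.30 and -2.04 and was called in both nodes, while Ccne2 had -0.23 and -0.57 and was called in neither.

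**Figure D2:**
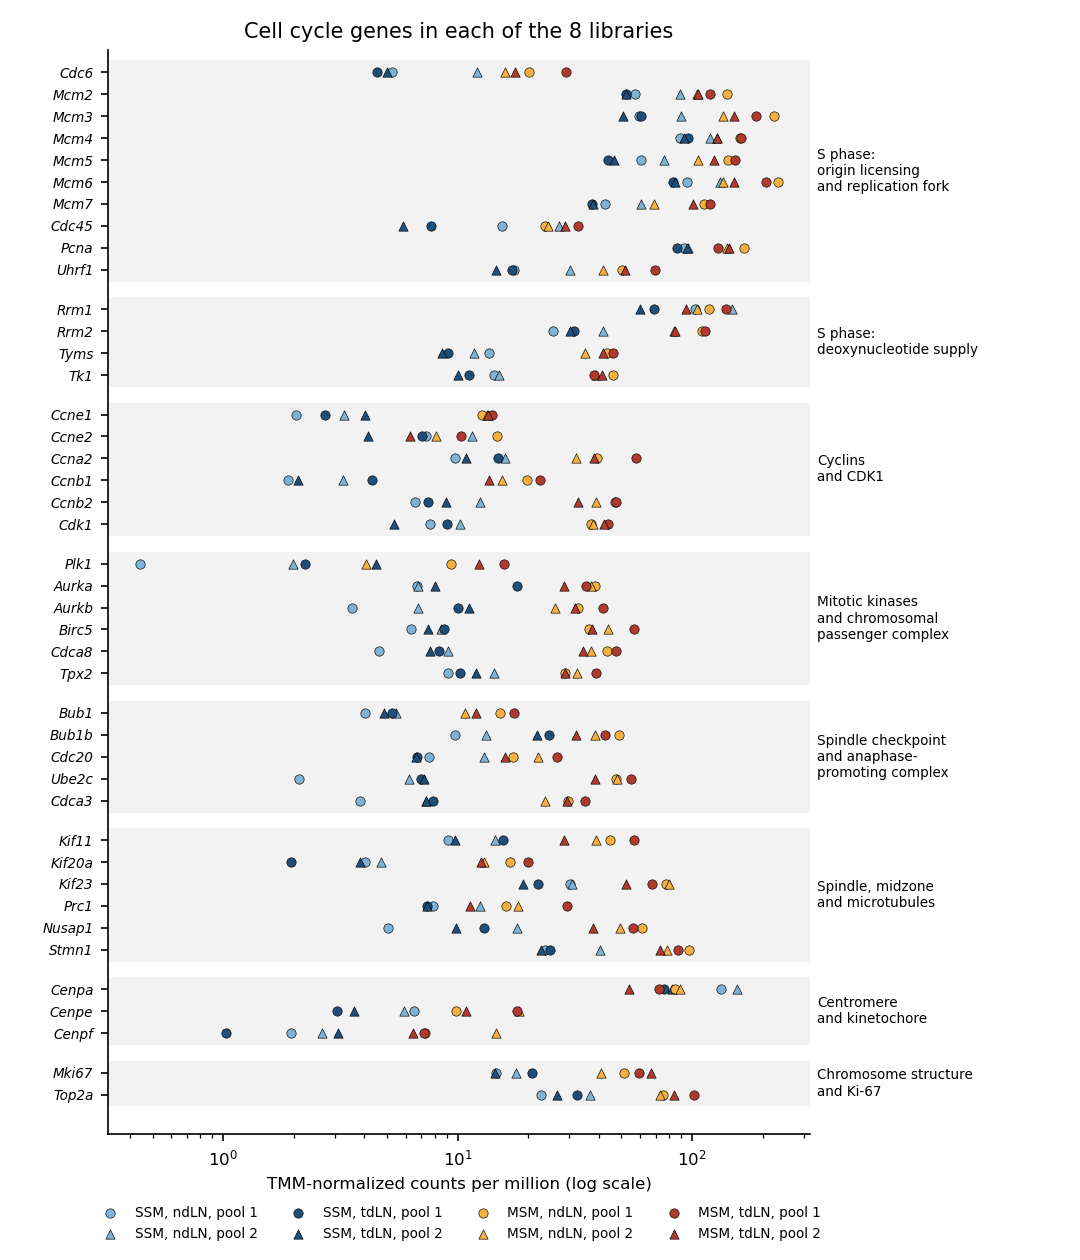
Level of each cell cycle gene in each of the 8 libraries, in TMM-normalized CPM on a log scale, with circles for pool 1 and triangles for pool 2. The MSM libraries (orange and red) lie right of the SSM libraries (blue) for most genes, by the most for mitotic genes such as Ube2c, and Cenpa is highest in SSMs from ndLNs.

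The mitotic kinases and the chromosomal passenger complex, which corrects the attachment of chromosomes to the spindle, had medians of -2.48 in ndLNs and -1.92 in tdLNs, with 5 and 4 of 6 called lower. Birc5 encodes survivin, a subunit of the passenger complex. It was at 6.34 and 8.51 CPM in SSMs and 36.5 and 44.0 CPM in MSMs from ndLNs, and at 8.79 and 7.50 CPM against 56.8 and 37.6 CPM in tdLNs. The groups did not overlap, and Birc5 was 5.44-fold lower in ndLNs (adjusted p = 0.000785) and 5.77-fold lower in tdLNs (adjusted p = 0.000950). Aurka, the Aurora kinase of the spindle poles, was at 6.71 and 6.79 CPM in SSMs against 38.7 and 37.0 CPM in MSMs from ndLNs. In tdLNs it was at 18.0 and 8.02 CPM against 35.2 and 28.3 CPM. The first SSM library from tdLNs was thus well above the second, and the difference was 5.64-fold in ndLNs (adjusted p = 0.000924) and 2.50-fold in tdLNs (adjusted p = 0.0180, short of the threshold). Plk1, the Polo kinase, was the member with the lowest level in 1 library, 24 counts in SSM ndLN library 1, and was called in neither node.

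Ube2c differed most of the 42 genes between SSMs and MSMs in both nodes. It encodes the ubiquitin-conjugating enzyme of the anaphase-promoting complex, which marks mitotic cyclins for destruction, and lies at chr2:164769898-164778822 on the plus strand (GRCm38). Its level was 2.11 and 6.20 CPM in SSMs and 47.4 and 47.8 CPM in MSMs from ndLNs, and 7.0 and 7.15 CPM in SSMs and 54.8 and 38.6 CPM in MSMs from tdLNs. Every MSM library was several times above every SSM library. The difference was 11.6-fold in ndLNs (log2 -3.54 ± 0.41 SE, adjusted p = 0.000721) and 6.61-fold in tdLNs (log2 -2.73 ± 0.38 SE, adjusted p = 0.00259). Leaving out 1 library moved the ndLN value between -4.59 and -2.85. Tnnc2 on the other strand overlaps 22.8% of the exon bases of Ube2c, and without a known strand setting such reads cannot be told apart. Of the other genes grouped with the checkpoint and the anaphase-promoting complex, Cdca3 was lower in both nodes and Bub1b, a checkpoint kinase, in ndLNs.

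Of the genes of the spindle and its midzone, 3 of 6 were called in each node, with medians of -1.60 and -1.74. Stmn1 encodes stathmin, which destabilizes microtubules. It was at 23.5 and 40.6 CPM in SSMs and 97.2 and 78.2 CPM in MSMs from ndLNs, and at 24.7 and 22.8 CPM against 87.4 and 72.9 CPM in tdLNs. SSMs were lower throughout, by 2.74-fold in ndLNs (adjusted p = 0.00718) and 3.37-fold in tdLNs (adjusted p = 0.00451). Of its windows of 50 bases, 18.9% also occur in other genes. Kif23, a kinesin of the midzone that is needed for cytokinesis, was called in both nodes at -1.38 and -1.53 on the log2 scale.

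Mki67, the gene of the proliferation marker Ki-67, and Top2a, the topoisomerase that untangles sister chromatids, were both lower in SSMs in both nodes. Top2a was at 22.6 and 36.7 CPM in SSMs and 74.9 and 72.7 CPM in MSMs from ndLNs, and at 32.3 and 26.4 CPM against 102 and 83.3 CPM in tdLNs. There was no overlap, and the difference was 2.49-fold in ndLNs (adjusted p = 0.00794) and 3.15-fold in tdLNs (adjusted p = 0.00387). Mki67 ranged from 14.5 to 20.9 CPM over the 4 SSM libraries and from 40.9 to 67.1 CPM over the 4 MSM libraries.

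Cenpa stood apart from the other members. It encodes the histone H3 variant that marks the centromere, and lies at chr5:30666777-30674830 on the plus strand (GRCm38). Its level was 133 and 155 CPM in SSMs and 84.2 and 88.7 CPM in MSMs from ndLNs, and 76.0 and 81.8 CPM in SSMs and 72.0 and 53.9 CPM in MSMs from tdLNs. SSMs from ndLNs were therefore highest of the 4 groups and did not overlap any other, whereas the tdLN groups lay close together. The log2 fold change of SSMs over MSMs was 0.74 ± 0.18 SE in ndLNs (adjusted p = 0.0223) and 0.33 ± 0.18 SE in tdLNs (adjusted p = 0.306), so neither passed the threshold of the edgeR test. In ndLNs it did pass with the DESeq2 Wald test (adjusted p = 0.000882), with a stricter filter on low counts (adjusted p = 0.00794) and with library totals (adjusted p = 0.00708). The other centromere genes, Cenpe and Cenpf, were below 0 in both nodes, and Cenpf was called in ndLNs.

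Grouped by phase, the 14 genes of both S phase roles had a median of -0.83 in ndLNs and -1.61 in tdLNs, while the 22 genes of the mitotic roles had -1.78 and -1.76. The difference between S phase and mitotic genes in ndLNs was not tested. It was seen in both pools: the medians of pool 1 were -1.34 for S phase and -1.97 for mitotic genes, and those of pool 2 were -0.42 and -1.38.

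The tdLNs were then compared with the ndLNs within each subset. These comparisons use the same libraries as the comparisons above. The study took inguinal, axillary and brachial nodes as ndLNs and placed the tumor near the inguinal node. Drainage therefore cannot be told apart from the site and number of the nodes pooled. In SSMs, 0 of the 42 genes were higher or lower in tdLNs than in ndLNs by the edgeR test, while 1.98% of all genes were higher and 1.05% were lower, and 9 of the 42 (21.4%) had an unadjusted p under 0.05, near the 23% of all genes. The median log2 fold change was -0.19, against -0.04 for all genes. All 14 S phase genes had values below 0, with a median of -0.47, and the mitotic roles had a median of 0.04. The mitotic roles differed among themselves. Medians were 0.57 for the mitotic kinases and passenger complex, 0.45 for the checkpoint role and 0.06 for chromosome structure. They were -0.44 for the spindle and -0.87 for the centromere. In pool 2 the kinase and checkpoint medians were 0.03 and -0.0007. Within pool 1 the S phase median was -0.19, with 11 of 14 genes below 0, and the mitotic median was 0.47. Within pool 2 they were -0.69, with 14 of 14 below 0, and -0.26. Cdc45, a subunit of the active replicative helicase, had the smallest p. It was at 15.4 and 27.1 CPM in SSMs from ndLNs and 7.69 and 5.87 CPM in SSMs from tdLNs, and the groups did not overlap (log2 -1.63 ± 0.32 SE, adjusted p = 0.0208). Cenpa had a log2 fold change of -0.87 ± 0.18 SE (adjusted p = 0.0256) and Rrm1 of -0.98 ± 0.25 SE (adjusted p = 0.0494). Of the 14 members above 0, Bub1b had the smallest p. It went from 9.78 and 13.2 CPM in ndLNs to 24.6 and 21.7 CPM in tdLNs (log2 1.00 ± 0.24 SE, adjusted p = 0.0442). Plk1 and Aurkb had larger values, 1.50 ± 0.77 SE (adjusted p = 0.297) and 1.05 ± 0.35 SE (adjusted p = 0.118). With the DESeq2 Wald test 4 members passed the threshold, Cdc45, Rrm1 and Cenpa as lower and Bub1b as higher. That test also called more of all 21085 genes tested, 1101 as higher and 833 as lower.

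SSM ndLN library 2 was above library 1 for 40 of the 42 genes, with a median difference of 0.60 on the log2 scale, against 46.2% of all genes. The summed level of the members was 1043 CPM in library 1 and 1435 CPM in library 2, and 982 and 929 CPM in the SSM tdLN libraries. Within pool 1 the median tdLN over ndLN difference in SSMs was 0.09, with 19 of 42 genes below 0. Within pool 2 it was -0.53, with 35 of 42 below 0, so the direction of the median was not shared by the pools. The title of 1 SSM tdLN library carries no pool number, and its place in pool 1 was taken from the name of its source, so the within-pool values rest on that label. The study's own sample list numbers 4 pools where the labels number 2. Neutrophil granule genes also differed: Ngp was at 12.9 and 104 CPM and Camp at 1.32 and 22.3 CPM in SSM ndLN libraries 1 and 2. The 8 listed neutrophil genes summed to 27.7 and 225 CPM there and to 0.330 to 7.62 CPM in MSMs. In SSM tdLN libraries 1 and 2 they summed to 437 and 185 CPM. Their highest sum was thus in SSM tdLN library 1, where the members summed to 982 CPM. In SSM ndLN libraries 1 and 2 the T cell sum was 2735 and 3088 CPM and the innate lymphoid sum 1811 and 2264 CPM. The NK and cytotoxic sum went the other way there, at 3207 and 2538 CPM. The part of these cell types in the result was not tested.

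In MSMs, 0 of the 42 genes were called in tdLNs against ndLNs, and 2 (4.76%) had an unadjusted p under 0.05, against 11.9% of all genes. Over all genes, 0.00474% were higher and 0.019% were lower, so this comparison yielded few calls of any kind. The median log2 fold change of the 42 genes was 0.05, and it was -0.23 without MSM tdLN library 1 and 0.28 without MSM tdLN library 2. The members' summed level was 2649 and 2146 CPM in ndLNs and 2727 and 2148 CPM in tdLNs, with library 1 above library 2 in both. Mki67 had a log2 fold change of 0.46 (adjusted p = 0.467) and Top2a of 0.33 (adjusted p = 0.649).

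Whether the difference between SSMs and MSMs depended on the node was tested as an interaction. None of the 42 genes passed by the edgeR test, and 0.0332% of all genes were higher and 0.00474% lower. An unadjusted p under 0.05 was seen for 7 members (16.7%) and for 12.3% of all genes. The value nearest to the threshold was that of Cdc45, whose log2 fold change of SSMs over MSMs was -0.19 in ndLNs and -2.18 in tdLNs, an interaction of -1.99 ± 0.42 SE (adjusted p = 0.0904, and 0.00108 with the DESeq2 Wald test). Over all genes, the DESeq2 Wald test called 465 higher and 214 lower for the interaction. Bub1b had 1.23 ± 0.33 SE (adjusted p = 0.161 by the edgeR test). The median interaction of the 42 genes, -0.32, was 0.17 without SSM ndLN library 2. The lists of genes called in 1 node were thus not shown to differ between nodes.

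**Figure D3:**
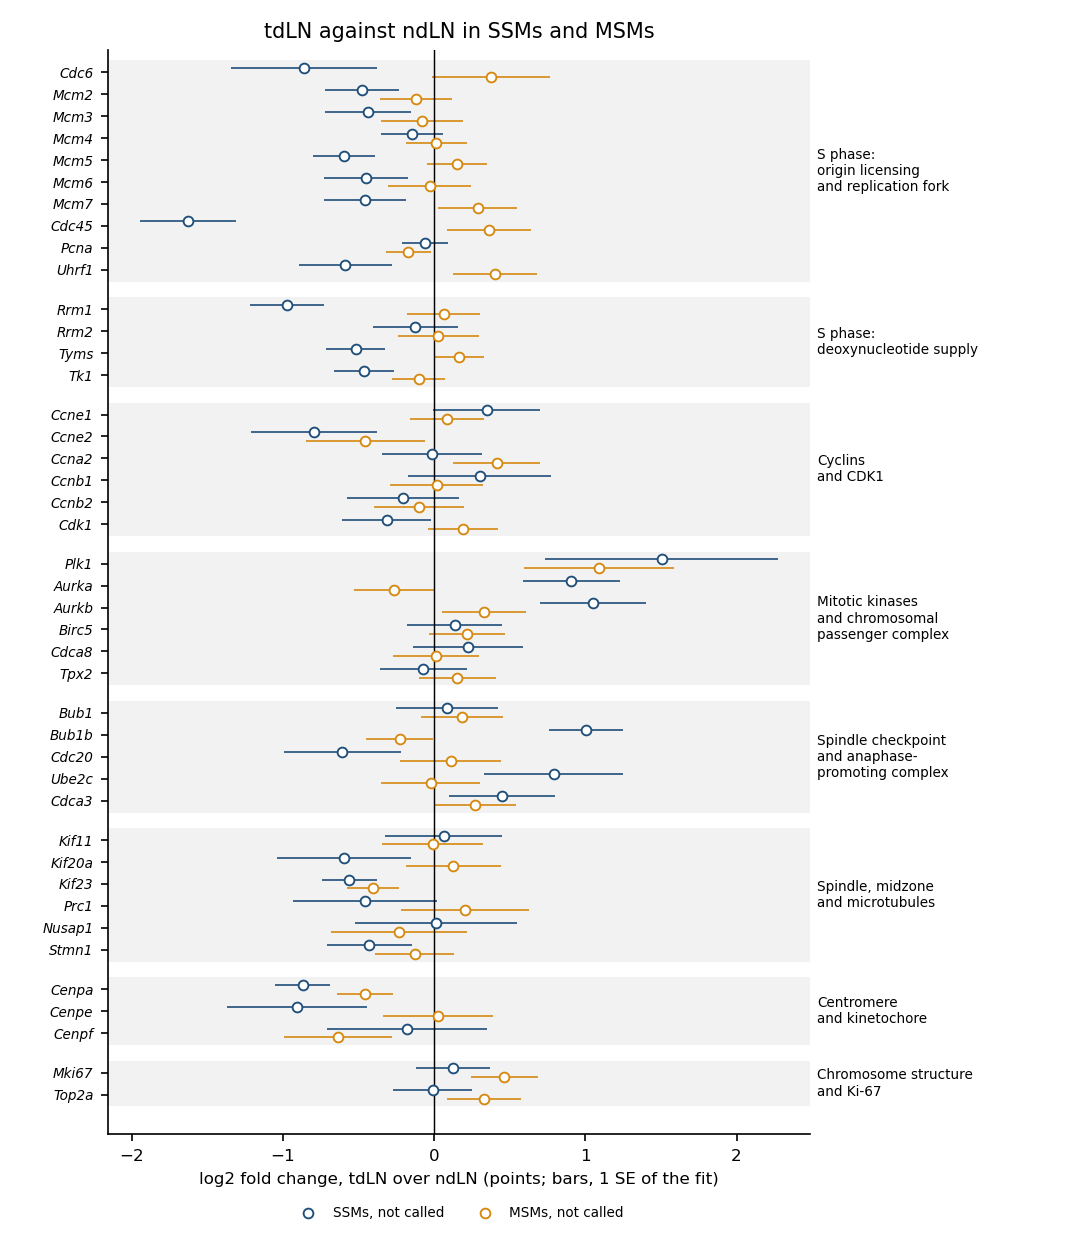
Log2 fold change of tdLNs over ndLNs for each cell cycle gene, in SSMs (blue) and MSMs (orange), with bars of 1 SE from the fit. Open points mark genes that were not called, which holds for all 42 in both subsets. In SSMs the 14 S phase genes lie left of 0, and Plk1, Aurkb and Bub1b lie at 1.50, 1.05 and 1.00.

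Other genes of the cycle were counted from 5 lists. Among all genes tested, 6.01% were higher and 6.06% lower in SSMs from ndLNs, and 5.16% and 3.53% in tdLNs. Of 24 further replication genes, 4 were lower in SSMs and 1 was higher in ndLNs, and 9 were lower and 0 higher in tdLNs. Of 40 further genes of G2 and mitosis, 11 were lower in ndLNs and 12 in tdLNs and 0 were higher in either, with medians of -1.46 and -1.64. Pbk, a mitotic kinase, had log2 fold changes of -2.90 and -2.87. Cdt1, a licensing factor that is degraded once S phase begins, was the 1 replication gene higher in SSMs from ndLNs, at 1.07. In tdLNs against ndLNs, 0 genes of these lists were called in SSMs or in MSMs. Of all genes, 1.98% were higher and 1.05% lower in SSMs, and 0.00474% and 0.019% in MSMs.

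The regulators of G1 moved in both directions. D-type cyclins partner CDK4 and CDK6 and act on the retinoblastoma protein before S phase. Ccnd1 was at 7.85 and 7.01 CPM in SSMs and 62.3 and 52.4 CPM in MSMs from ndLNs, and at 8.14 and 10.9 CPM against 48.1 and 84.1 CPM in tdLNs. Ccnd2 was at 451 and 392 CPM in SSMs and 33.4 and 53.8 CPM in MSMs from ndLNs, and at 187 and 231 CPM against 39.0 and 40.5 CPM in tdLNs. The subsets did not overlap for either D-type cyclin, and the directions were opposite. Ccnd1 was 7.72-fold and 6.88-fold lower in SSMs (adjusted p = 0.000429 and 0.000753), and Ccnd2 was 9.83-fold and 5.24-fold higher (adjusted p = 7.10e-05 and 0.000388). Exons of a gene on the other strand overlap 23.4% of Ccnd1. Of the 9 genes in this list, 2 were higher and 4 lower in SSMs from ndLNs, and 2 and 2 in tdLNs. Myc, a transcription factor of growth, was the other higher gene, at 153 and 146 CPM in SSMs against 61.5 and 69.1 CPM in MSMs from ndLNs and 110 and 133 CPM against 38.4 and 42.5 CPM in tdLNs. It was 2.30-fold (adjusted p = 0.00100) and 2.99-fold (adjusted p = 0.000485) higher, again without overlap.

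**Figure D4:**
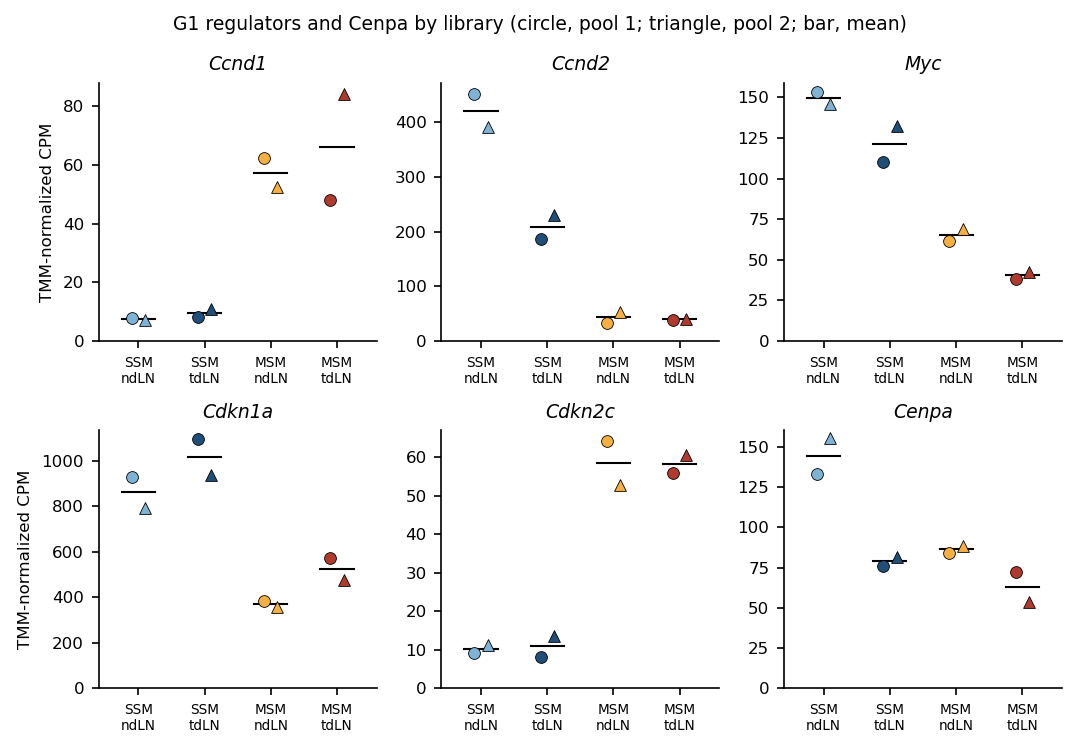
Level of 5 G1 regulators and of Cenpa in each library, in TMM-normalized CPM, with circles for pool 1, triangles for pool 2 and a bar at the mean of the 2 libraries. Ccnd1 and Cdkn2c are high in MSMs, Ccnd2, Myc and Cdkn1a are high in SSMs, and Cenpa is high in SSMs from ndLNs.

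The CDK inhibitors that were called also lay in both directions. Cdkn1a, which encodes p21, was at 928 and 793 CPM in SSMs and 384 and 359 CPM in MSMs from ndLNs, and at 1097 and 936 CPM against 571 and 476 CPM in tdLNs. Cdkn2c, which encodes the CDK4 and CDK6 inhibitor p18, was at 9.07 and 11.2 CPM in SSMs and 64.2 and 52.9 CPM in MSMs from ndLNs, and at 8.23 and 13.7 CPM against 55.8 and 60.6 CPM in tdLNs. Both were separated in both nodes, in opposite directions. Cdkn1a was 2.31-fold and 1.94-fold higher in SSMs (adjusted p = 0.000236 and 0.000906), and Cdkn2c was 5.83-fold and 5.36-fold lower (adjusted p = 0.000374 and 0.000691). Of the 13 genes of this list, 2 were higher and 1 lower in ndLNs, and 1 higher and 2 lower in tdLNs. With so few calls, these are differences of single genes and not of the list. Of 19 regulators of the RB, E2F and DREAM group, Rbl2, a pocket protein of resting cells, was higher in SSMs in both nodes at 1.95 and 1.29 on the log2 scale. E2f1, an activator of S phase genes, was lower in both at -0.99 and -1.23. E2f8 was lower in ndLNs and Foxm1, a transcription factor of mitotic genes, in tdLNs. With 1 higher and 2 lower of the 19 in each node, these too are differences of single genes.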

How the data were processed

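RNA of sorted cells was amplified with SMART-Seq v4 and sequenced on an Illumina HiSeq. The submitters' processing notes name bcl2fastq 2.20.0.422, Trimmomatic 0.36, STAR 2.5.3a and GRCm38, and the authors deposited whole-number counts per gene for 16 samples without normalization. The strand setting is not given in the sources used here. Symbols came from GENCODE M21, which matched 55240 of 55423 rows, and 2 rows of added sequences with 6 counts were left out.

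Lanes were summed (chi-square per degree of freedom 0.955 to 1.01 between lanes, 29.3 to 53.1 between libraries of a group). Genes were kept with at least 10 counts in total and detection in 2 samples. Group and pool were fitted over 8 libraries by edgeR 4.0.16 (TMM, quasi-likelihood test, R 4.3.3), with Benjamini-Hochberg adjustment over 21085 genes. Pools pair the samples because the study's methods take all 4 samples from the same mice. The data themselves showed little shared deviation by pool. Deviations of same-numbered libraries were correlated between -0.194 and 0.148 over 9996 genes. Each p-value rests on the spread left after group and pool were fitted, estimated over all 4 groups and not only those compared. Only 2 pools stand behind it. On simulated data of 21085 genes for SSMs against MSMs in ndLNs, 175 of 200 genes changed by 4-fold were recovered with 5 false calls. DESeq2 1.42.0 was an alternative.

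The members and lists were chosen with earlier results of these data known. Values in every library are given for the gene with the highest CPM per kb in each role and the 4 genes with the smallest p in a contrast, among called members and among called genes of the 5 lists. Mcm5, Rrm1, Cdc45, Bub1b and others named by their values were chosen after these were seen. Of the 12 lists of marker genes, B cells summed to 105 to 171 CPM in SSMs and 20.2 to 56.8 CPM in MSMs, plasma cells to 665 to 907 and 263 to 453 CPM, plasmacytoid dendritic cells to 171 to 302 and 202 to 245 CPM, basophils and mast cells to 374 to 2632 and 311 to 690 CPM, T cells to 1295 to 3088 and 512 to 898 CPM, innate lymphoid genes to 685 to 2264 and 37.7 to 92.6 CPM, and carcinoma and epithelial genes to 10.5 to 35.3 and 19.7 to 51.3 CPM.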

Additional observations from a re-analysis of the deposited data

How the results depend on the processing

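With 2 libraries in a group, the counts of calls were the least stable values. Leaving out each library in turn gave 2 to 22 members lower in SSMs from ndLNs and 1 to 29 in tdLNs, and medians of -1.84 to -1.15 and of -2.08 to -1.51. The medians of tdLNs over ndLNs lay between -0.57 and 0.14 in SSMs and between -0.23 and 0.28 in MSMs, and that of the interaction between -0.61 and 0.17. With no replicate block for pool, 27 members were lower in SSMs in ndLNs and 27 in tdLNs, beside 1457 and 859 of all 21085 genes. Leaving the block out moved no count of members by over 1.5 times. Cenpa made 1 member higher in SSMs from ndLNs with the DESeq2 Wald test, with at least 1 CPM in 2 libraries, with library totals (chosen after seeing the data) and at an adjusted p under 0.05. In SSMs, tdLNs against ndLNs gave 1 higher and 3 lower members with the DESeq2 Wald test and at an adjusted p under 0.05. With at least 1 CPM in 2 libraries it gave 2 lower. Over all genes the main fit gave 418 higher and 221 lower. The split was 1101 and 833 with the DESeq2 Wald test and 1121 and 711 at an adjusted p under 0.05. It was 683 and 447 with at least 1 CPM in 2 libraries, and 279 and 383 with library totals. The interaction gave 1 lower member with the DESeq2 Wald test, beside 465 higher and 214 lower over all genes. Of 464 values of named genes under 16 alternatives, 375 kept their call, 89 lost it and 0 reversed. Only values called in the main fit were counted. An adjusted p under 0.05 and no limit on the mean count only loosened the rule, so no call could be lost under them.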
